A study of Mus musculus with 32 samples.

Results

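The GIMAP genes encode GTPases of the immunity-associated protein family, and 8 of them (Gimap1, Gimap3, Gimap4, Gimap5, Gimap6, Gimap7, Gimap8 and Gimap9) were followed here across 6 populations of mouse bone marrow cells. The members were the probe sets whose gene symbol in the platform annotation is exactly 1 of these 8 names. These are 8 of the 18193 genes named by a single symbol on the arrays, and their probe sets came to 11 of 45037, 6 on chip type A and 5 on chip type B, and Gimap4, Gimap6 and Gimap7 had a pair of probe sets each. All 11 passed the filter on low signal, a signal above the median of the chip type (537 on A and 841.6 on B) on at least 3 of 15 arrays, and were tested among 28599 probe sets.

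RNA of 16 samples was hybridised to Affymetrix mouse arrays of both chip types, which gave 32 arrays. All cells came from mouse bone marrow, and the labels give no strain, age, genotype or treatment. Total marrow was unfractionated, and lineage-depleted marrow had lost most mature cells through an enrichment kit with an estimated purification of 20 to 24 fold. The sorted cells were lineage-negative and were divided by the surface proteins Sca-1 and cKit to an estimated purity over 90%. The stem-enriched cells were Sca-1-positive and cKit-positive per the instrument records of the arrays, since their titles give only a number. The labels call them rich in stem and progenitor activity. The cKit-positive cells were Sca-1-negative and cKit-positive and stand for later progenitors per the labels. The cKit-negative cells lacked both proteins, and the submitters took them to lean to the lymphoid lineage. Each of these 5 populations had 3 samples. Sca-1-positive cKit-negative cells had 1 sample, with a stated purity of 98%, and are described without a test. The labels do not say that samples came from separate animals, so p-values measure the spread between these samples, which may be technical.

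GIMAP proteins bind GTP and sit on the membranes of cell organelles, and in mice and rats they are known above all for keeping lymphocytes alive. Their genes lie side by side on mouse chromosome 6, and in the RefSeq table the order is Gimap8, Gimap9, Gimap4, Gimap6, Gimap7, Gimap1, Gimap5 and Gimap3, with no other protein-coding gene between them. T cells, B cells and natural killer cells are the cell types in which the family is best described. In blood stem and progenitor cells the family is less well described.

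The start regions of 4 members are shown because their genes had contrasting levels in stem-enriched cells. Gimap4 and Gimap3 were lower there than in cKit-negative cells, whereas no difference between these populations was called for Gimap1 and Gimap6. Each stretch runs 5′ to 3′ on the gene's strand from 250 bases before the RefSeq start to 50 bases after it (build GRCm38.p6). Capitals mark matches to TGTGGT, a core bound by RUNX factors, or AGGAAGT, a core bound by ETS factors, on either strand.
Gimap4, chr6:48684328-48684627, plus strand: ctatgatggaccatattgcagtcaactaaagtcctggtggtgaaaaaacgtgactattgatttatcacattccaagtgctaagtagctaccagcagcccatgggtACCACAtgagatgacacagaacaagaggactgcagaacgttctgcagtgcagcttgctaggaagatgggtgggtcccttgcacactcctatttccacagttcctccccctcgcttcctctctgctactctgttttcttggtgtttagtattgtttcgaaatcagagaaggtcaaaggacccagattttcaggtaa
Gimap3, chr6:48770802-48771101, minus strand: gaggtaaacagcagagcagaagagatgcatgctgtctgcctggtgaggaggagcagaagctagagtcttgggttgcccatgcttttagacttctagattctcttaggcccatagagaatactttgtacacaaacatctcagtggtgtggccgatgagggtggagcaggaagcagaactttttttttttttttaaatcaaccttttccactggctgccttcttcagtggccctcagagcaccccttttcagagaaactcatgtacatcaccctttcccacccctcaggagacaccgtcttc
Gimap1, chr6:48738797-48739096, plus strand: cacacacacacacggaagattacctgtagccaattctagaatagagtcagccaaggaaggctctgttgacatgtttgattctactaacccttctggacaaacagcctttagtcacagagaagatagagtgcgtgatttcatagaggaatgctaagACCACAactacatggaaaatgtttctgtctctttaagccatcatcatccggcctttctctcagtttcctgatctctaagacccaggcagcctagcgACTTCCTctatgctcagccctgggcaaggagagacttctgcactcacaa
Gimap6, chr6:48708195-48708494, minus strand: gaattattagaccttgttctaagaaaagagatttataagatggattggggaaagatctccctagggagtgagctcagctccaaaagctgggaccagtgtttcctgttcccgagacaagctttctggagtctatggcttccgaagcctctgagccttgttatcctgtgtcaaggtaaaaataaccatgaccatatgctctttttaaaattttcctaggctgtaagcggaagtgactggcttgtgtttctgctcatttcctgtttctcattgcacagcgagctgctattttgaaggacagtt
The 8 genes had 9 such windows of 300 bases, since Gimap8 has a pair of starts. TGTGGT or its reverse complement was present in 3 of the 9, those of Gimap4, Gimap7 and Gimap1, and in 16.8% of 32851 mouse windows of that length. AGGAAGT or its reverse complement was present in 3 of the 9, those of Gimap9, Gimap1 and Gimap5, and in 9.35% of all windows. Gimap1 was the 1 member whose window held both. CTTTGA, bound by TCF and LEF factors, was present in the windows of Gimap4 and Gimap7 and in 16% of all windows. Neither AGATAA, bound by GATA factors (11.2% of all windows), nor the E box CAGCTG (16.3%) was found in a member's window. These matches are letters in a window, and no binding was measured.

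The depth of an array is its signal. The median signal of an array ranged from 453 to 879.9 for A and from 789.9 to 1011 for B. The cKit-positive sample 2 stood apart from the rest: its log2 signals correlated with the other 14 samples at r of 0.567 to 0.689, whereas the remaining pairs of samples reached 0.737 to 0.934. Its log2 ratio of 3′ to 5′ Gapdh control signal, a measure of RNA quality, was 0.38 on chip type A, the lowest there. A higher ratio means less 5′ than 3′ signal. The stem-enriched samples had 3.99 ± 0.17, lineage-depleted marrow 3.34 ± 0.28, total marrow 3.12 ± 0.33 and cKit-negative cells 3.09 ± 0.23 (SD, n = 3). RNA was given as 10 ng per µl for stem-enriched, 11 to 315 for cKit-positive and 12 to 226 for cKit-negative samples. It was 6.4 to 150.8 for lineage-depleted and 130 to 390 for total marrow. GIMAP differences from cKit-positive cells are given with and without cKit-positive sample 2. Signals below the floor were raised to it, so a fold against cKit-positive cells is a lower bound for these samples where some of them lay below it. The words "at least" mark this effect of the floor alone. They do not cover the spread between samples, and leaving out a sample can give a smaller fold. Kit, the gene of the sort marker cKit, had log2 signals of 12.24 ± 0.09 in stem-enriched and 12.19 ± 0.13 in cKit-positive cells, against 9.79 ± 0.46 in cKit-negative cells (SD, n = 3) and 9.46 in the single Sca-1-positive cKit-negative sample. Arrays of chip type A came from 3 manufacturing lots that crossed the populations in part. On chip type B the 3 total marrow arrays shared a lot with the single Sca-1-positive cKit-negative array and with none of the other populations, so that lot and population cannot be told apart there.

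All 11 probe sets differed between the 5 populations in limma's moderated F test with Benjamini-Hochberg adjustment over all tested probe sets (adjusted p between 4.04e-05 and 0.0337), against 17.3% of tested probe sets. The mean log2 signal was lowest in cKit-positive cells for 10 of the 11, against 20.9% of all tested probe sets. The exception was the Gimap6 probe set 1456762_at, whose mean was lowest in total marrow. Stem-enriched cells had the highest mean for 6 probe sets (23.1% of all tested) and cKit-negative cells for 5 (16.6%). The F test of Gimap7 was not stable: the call for 1425084_at was lost without cKit-negative sample 1 (adjusted p = 0.0574), and that for 1444283_at was lost without any of 9 samples, up to an adjusted p of 0.0981 without stem-enriched sample 3. Those 9 were the 3 stem-enriched samples, cKit-positive 1 and 3, cKit-negative 2 and 3, and total marrow 1 and 3. All 11 were called without cKit-positive sample 2 (adjusted p between 8.6e-08 and 0.0161). In these samples of mixed cells, fewer cells of a type and less RNA per cell cannot be told apart.

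**Figure D1:**
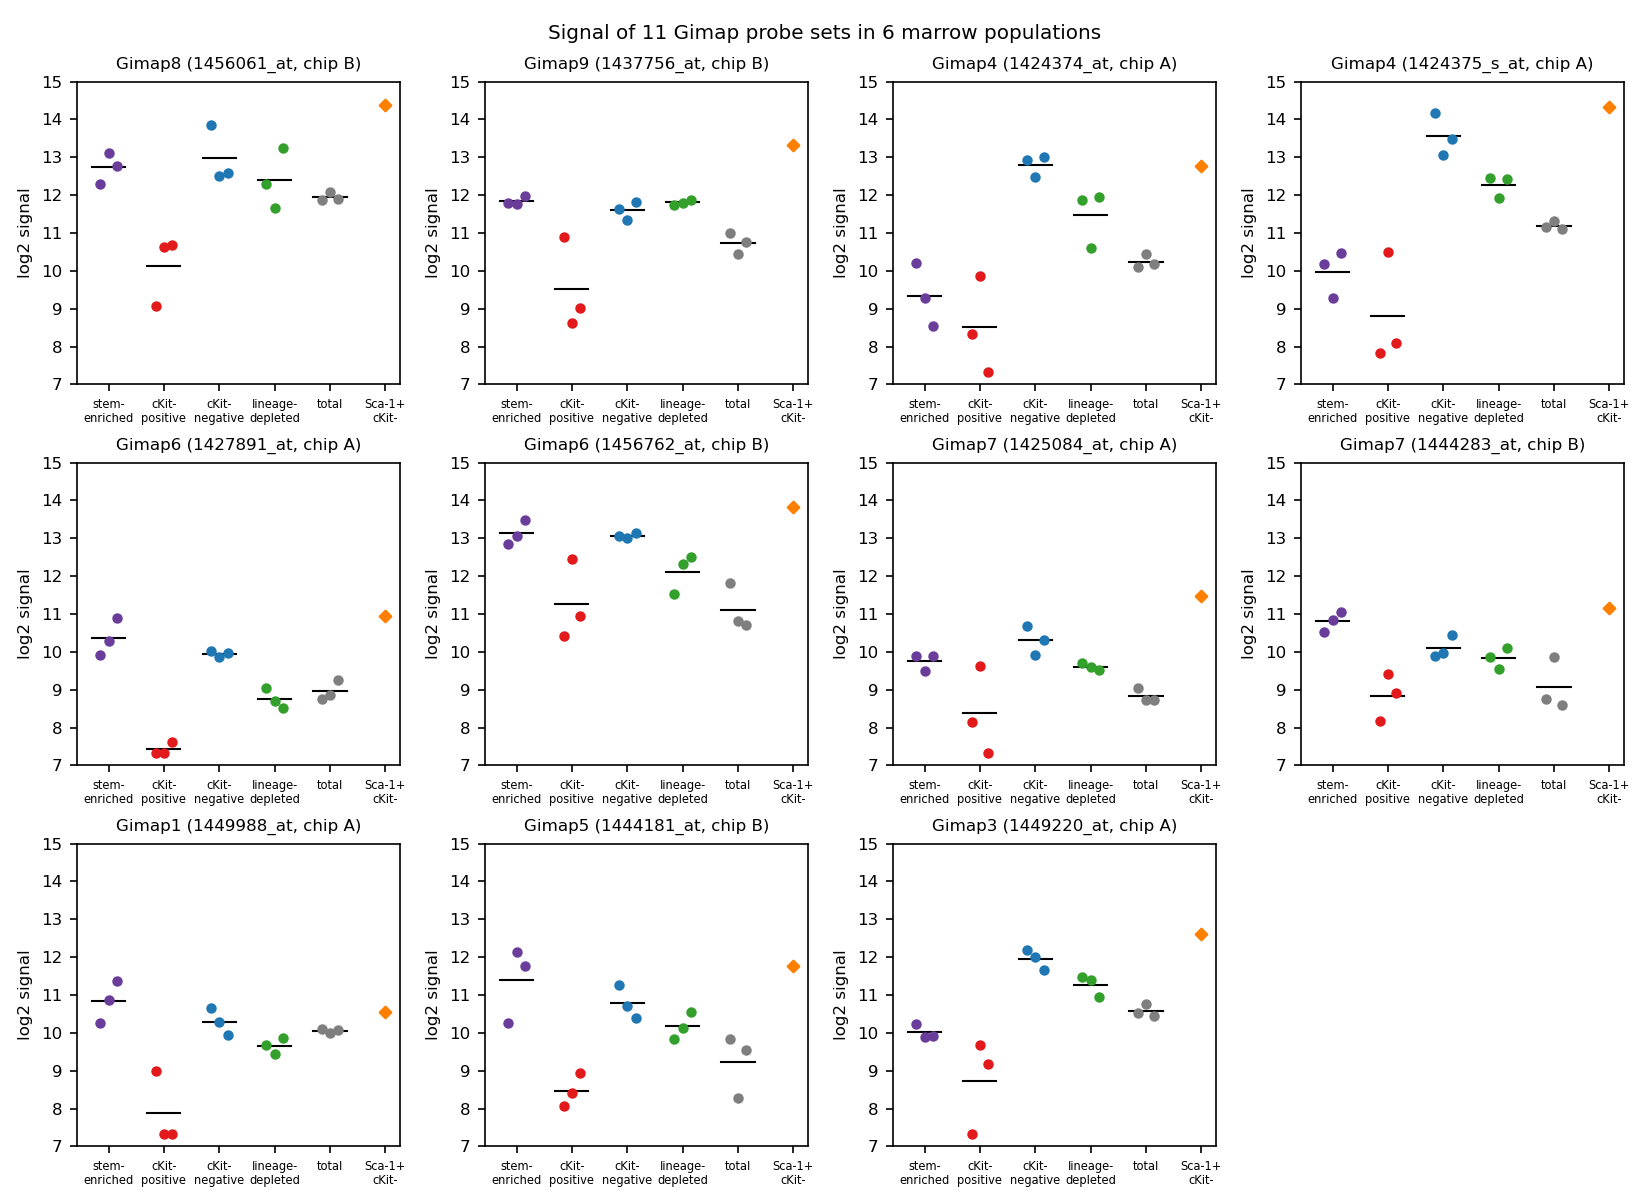
Log2 signal (vertical axis, signals under the floor raised to it) of the 11 probe sets in the 6 populations. Circles are samples, black lines are means of 3 samples, and the diamond is the single Sca-1-positive cKit-negative sample. The cKit-positive cells have the lowest mean in 10 of 11 panels, and Gimap4 and Gimap3 separate cKit-negative from stem-enriched cells.

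Gimap4, whose product in mice speeds the death of T cells, showed the widest range of the family. For probe set 1424375_s_at the signals were 18365, 8588 and 11343 in cKit-negative cells and 5579, 3864 and 5536 in lineage-depleted marrow. They were 2296, 2546 and 2209 in total marrow and 1153, 618.6 and 1428 in stem-enriched cells. The cKit-positive samples read 225.6, 1433 and 274.7, so that sample 2 alone was as high as the stem-enriched samples. Every cKit-negative sample stood above every sample of the other 4 populations with 3 samples. The mean log2 signals fell in the order cKit-negative 13.57 ± 0.55, lineage-depleted 12.27 ± 0.30, total 11.20 ± 0.11, stem-enriched 9.97 ± 0.63 and cKit-positive 8.80 ± 1.46 (SD, n = 3 each). No step between neighbours in that order passed the test with all samples (limma, adjusted p between 0.131 and 0.288). Without cKit-positive sample 2 each of these steps was called (limma adjusted p between 0.00366 and 0.032).

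Across wider steps Gimap4 differed with all samples in the fit. In cKit-negative cells the 1424375_s_at signal was 27.2-fold that of cKit-positive cells (log2 difference 4.77 ± 0.51 SE, limma adjusted p = 1.28e-05; 48.8-fold without cKit-positive sample 2) and 12.1-fold that of stem-enriched cells (3.59 ± 0.51, adjusted p = 0.000248). The other Gimap4 probe set, 1424374_at, had 7730, 5664 and 8204 in cKit-negative cells and 1172, 625.7 and 372.1 in stem-enriched cells, an 11-fold difference (log2 3.45 ± 0.52, limma adjusted p = 0.000413). Its cKit-positive samples read 320.6, 935.7 and 96.1, the last below the floor of 162.2, and its total marrow samples 1107, 1391 and 1153. Against cKit-positive cells the cKit-negative signal was at least 19.5-fold on this probe set (4.28 ± 0.52), at least 31.2-fold without cKit-positive sample 2 and 13-fold without sample 3. Lineage-depleted marrow read 3747, 1570 and 3969. Both probe sets thus gave the same order of populations. The suffix of 1424375_s_at says that its probes may also match related transcripts.

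Gimap3, a close relative of Gimap5 whose product in mice is linked to mitochondrial DNA inheritance in blood cells, had the same order of populations as Gimap4. Its signals (1449220_at) were 4676, 4116 and 3245 in cKit-negative cells and 2867, 2709 and 1962 in lineage-depleted marrow. Total marrow gave 1463, 1739 and 1394, and stem-enriched cells gave 1214, 944.1 and 961.6. In cKit-positive cells they were 76.8, 819.1 and 583.3, with sample 1 below the floor. All 3 cKit-negative samples lay above those of the other 4 populations with 3 samples, and the stem-enriched samples lay below those of total marrow. With chip lot as a block, Gimap3 differed by 0.0997 log2 units between cKit-negative cells and lineage-depleted marrow (0.678 without the block). Lineage-depleted minus total marrow was -0.0681 with the block and 0.701 without it. The cKit-negative mean was at least 9.31-fold the cKit-positive mean (log2 3.22 ± 0.42 SE, limma adjusted p = 7.19e-05; 3.69 without cKit-positive sample 2 and 2.52 without sample 1) and 3.84-fold the stem-enriched mean (1.94 ± 0.42, adjusted p = 0.00681). Whether probes of Gimap3 also capture Gimap5 transcripts was not tested.

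Gimap6, whose product interacts with the autophagy protein Gabarapl2, was read by probe sets on both chip types. On chip type A (1427891_at) stem-enriched cells gave 963, 1251 and 1894 and cKit-negative cells 1045, 926.5 and 1010. Total marrow gave 432.4, 462.8 and 612.7, and lineage-depleted marrow 529.9, 417.1 and 365.5. The cKit-positive cells gave 152.9, 101.6 and 196.7, a set of values of which 2 lay below the floor of 162.2. Stem-enriched and cKit-negative samples overlapped, and every sample of both lay above every sample of the other 3 populations with 3 samples. The stem-enriched mean was at least 7.61-fold the cKit-positive mean (log2 2.93 ± 0.31 SE, limma adjusted p = 0.000169; 2.88 without cKit-positive sample 2), 2.65-fold the total marrow mean (1.41 ± 0.31, adjusted p = 0.00596) and 3.05-fold the lineage-depleted mean (1.61 ± 0.31, adjusted p = 0.00986). The last call was lost without stem-enriched sample 3 (adjusted p = 0.0897) or lineage-depleted sample 3 (0.0518).

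On chip type B the Gimap6 probe set 1456762_at gave 7364, 8586 and 11458 in stem-enriched cells and 8506, 8225 and 8992 in cKit-negative cells. The cKit-positive samples read 1360, 5577 and 1980, those of total marrow 3604, 1805 and 1678, and those of lineage-depleted marrow 2958, 5093 and 5849. Here total marrow and cKit-positive cells shared the lowest range. The stem-enriched mean was 4.05-fold that of total marrow (log2 2.02 ± 0.42 SE, limma adjusted p = 0.00284) and 3.64-fold that of cKit-positive cells (1.86 ± 0.42, adjusted p = 0.0238; 5.47-fold without cKit-positive sample 2). The cKit-negative mean was 3.47-fold that of cKit-positive cells (1.80 ± 0.42, limma adjusted p = 0.00836; 5.22-fold without that sample). The call for stem-enriched against cKit-positive cells was lost without stem-enriched sample 2 (adjusted p = 0.0821) or 3 (0.124), or without cKit-positive sample 1 (0.058) or 3 (0.0695). The 2 Gimap6 probe sets correlated at r = 0.685 over 15 samples, and at 0.809 without cKit-positive sample 2.

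Gimap1, which mice need for mature T and B cells, had its highest mean in stem-enriched cells. The signals (1449988_at) were 1225, 1884 and 2635 in stem-enriched cells and 1610, 1245 and 987.5 in cKit-negative cells. Total marrow gave 1102, 1016 and 1077, and lineage-depleted marrow 824.3, 696 and 933.4. In cKit-positive cells they were 506.5, 76 and 135.4, the last 2 below the floor. The cKit-positive samples lay below all others. The stem-enriched mean was at least 7.7-fold the cKit-positive mean (log2 2.94 ± 0.39 SE, limma adjusted p = 0.000902), and the cKit-negative mean at least 5.3-fold (2.40 ± 0.39, adjusted p = 0.000699). These log2 differences were 2.67 and 2.13 without cKit-positive sample 2. Between cKit-negative and stem-enriched cells the difference was -0.54 ± 0.39 (adjusted p = 0.481).

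Gimap5 is the member whose loss in rats and mice depletes T cells, and in mice it is also needed by blood stem cells. On probe set 1444181_at the stem-enriched samples spread most, with 1236, 4534 and 3495. The cKit-negative samples gave 2474, 1679 and 1353, lineage-depleted marrow 910.2, 1125 and 1498, and total marrow 918.2, 309.4 and 745.3. The cKit-positive samples, with 204.8, 343 and 493.5, lay below all stem-enriched and cKit-negative samples. The first of these is below the floor of 267.3. The stem-enriched mean was at least 7.56-fold that of cKit-positive cells (log2 2.92 ± 0.54 SE, limma adjusted p = 0.0071) and 4.52-fold that of total marrow (2.18 ± 0.54, adjusted p = 0.0107). The first call was lost without stem-enriched sample 2 (adjusted p = 0.0596) or 3 (0.0544). The second was lost without stem-enriched sample 2 (0.0708) or 3 (0.0542) or total marrow sample 2 (0.0754). The cKit-negative mean was at least 4.99-fold that of cKit-positive cells (2.32 ± 0.54, adjusted p = 0.00889). Leaving out cKit-positive sample 2 gave 2.89 for stem-enriched and 2.29 for cKit-negative cells, both called.

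Gimap8, the largest protein of the family with several GTPase domains, gave signals (1456061_at) of 5054, 8903 and 7015 in stem-enriched cells and 14881, 5834 and 6141 in cKit-negative cells. They were 537.6, 1572 and 1642 in cKit-positive cells, below every other sample. Total marrow gave 3748, 4315 and 3801, and lineage-depleted marrow 5063, 3212 and 9625. The cKit-negative mean was 7.27-fold the cKit-positive mean (log2 2.86 ± 0.45 SE, limma adjusted p = 0.000321) and the stem-enriched mean 6.1-fold (2.61 ± 0.45, adjusted p = 0.00376). With cKit-positive sample 2 left out they were 3.11 and 2.86 log2 units.

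Gimap9 (1437756_at) was nearly level in 3 populations. Its signals were 3518, 3500 and 4052 in stem-enriched cells, 3408, 3559 and 3779 in lineage-depleted marrow and 3205, 2606 and 3591 in cKit-negative cells. Total marrow lay lower, with 2042, 1399 and 1729. The cKit-positive samples read 1910, 393.7 and 515.9, so that sample 1 alone lay within the total marrow range. The stem-enriched mean was 5.05-fold the cKit-positive mean (log2 2.34 ± 0.43 SE, limma adjusted p = 0.00596) and the cKit-negative mean 4.26-fold (2.09 ± 0.43, adjusted p = 0.00318). These were 1.89 and 1.65 log2 units without cKit-positive sample 2, and 3.03 and 2.79 (8.17- and 6.89-fold) without sample 1.

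Gimap7, whose human counterpart switches on the GTPase activity of related GIMAP proteins, had probe sets that ordered the highest populations differently. On 1425084_at the signals were 1650, 973.3 and 1268 in cKit-negative cells and 945.6, 714.9 and 951.5 in stem-enriched cells. On 1444283_at they were 943, 1009 and 1384 in cKit-negative cells and 1474, 1850 and 2134 in stem-enriched cells. Neither difference passed the test (log2 0.55 ± 0.42 SE, limma adjusted p = 0.51, and -0.71 ± 0.49, adjusted p = 0.445). In cKit-positive cells the signals were 283.9, 791.9 and 115.5 on the first probe set and 291.1, 679.8 and 483.5 on the second. On both, all cKit-negative samples exceeded all cKit-positive samples, but the difference was called for 1425084_at (1.93 ± 0.42, adjusted p = 0.00673) and not for 1444283_at (1.26 ± 0.49, adjusted p = 0.105). They were 2.56 (3.51e-05) and 1.55 (0.0581) without cKit-positive sample 2.

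Set side by side, cKit-negative cells exceeded cKit-positive cells in 10 of the 11 probe sets at an adjusted p under 0.05, against 6.47% of tested probe sets higher there and 11.5% called in either direction. The median difference of the 11 was 2.40 log2 units (range 1.26 to 4.77), against -0.08 over all tested probe sets. In all 11 the 3 cKit-negative samples lay above the 3 cKit-positive samples, against 11.8% of tested probe sets. The range was 1.55 to 5.61 with a median of 2.47 without cKit-positive sample 2, and 10 were called, against 6.93% of 27717 probe sets higher in that fit. None of the 10 calls was lost when any 1 of the 15 samples was left out. With the 6 samples of these populations alone in the fit, 6 of 11 were called and 954 of all 28599.

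Stem-enriched cells exceeded cKit-positive cells in 7 probe sets, against 1.49% of tested probe sets higher there and 2.23% called in either direction. Those 7 belonged to Gimap1, Gimap5, Gimap6 (both), Gimap8, Gimap9 and Gimap7 (1444283_at). The median of the 11 differences was 1.98, against -0.03 over all tested probe sets. In 8 probe sets the samples did not overlap (8.31% of all tested). For Gimap4, Gimap3 and the other Gimap7 probe set the differences were 0.83 and 1.17, 1.28 and 1.38, with adjusted p between 0.106 and 0.466. Without cKit-positive sample 2, limma also called Gimap4 1424375_s_at (2.01, adjusted p = 0.00366), Gimap3 (1.75, 0.0191) and Gimap7 1425084_at (2.01, 0.00221), which makes 10 of 11 with a median of 2.26, against 1.78% of probe sets higher in that fit. Gimap4 1424374_at was then at 1.51 (0.0822). The call for Gimap7 1444283_at was retained in 3 of the 15 fits with 1 sample left out, those without cKit-positive 2, cKit-negative 1 or total marrow 2, and the adjusted p rose to 0.153 without stem-enriched sample 3. With the 6 samples of these populations alone in the fit, none of the 11 was called and 3 of all 28599, so the 7 calls rest on the spread estimated over 5 populations.

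Between cKit-negative and stem-enriched cells only Gimap4 (both probe sets) and Gimap3 were called, all higher in cKit-negative cells, against 4.78% of tested probe sets higher there and 8.48% in either direction. The other 8 differences lay between -0.71 and 0.55 log2 units. No sample, when left out, ended any of the 3 calls. Samples did not overlap, with cKit-negative higher, in 4 probe sets, Gimap7 1425084_at besides the 3 called (13.2% of all tested). The comparisons among these populations share samples, so their values are not independent of each other.

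**Figure D2:**
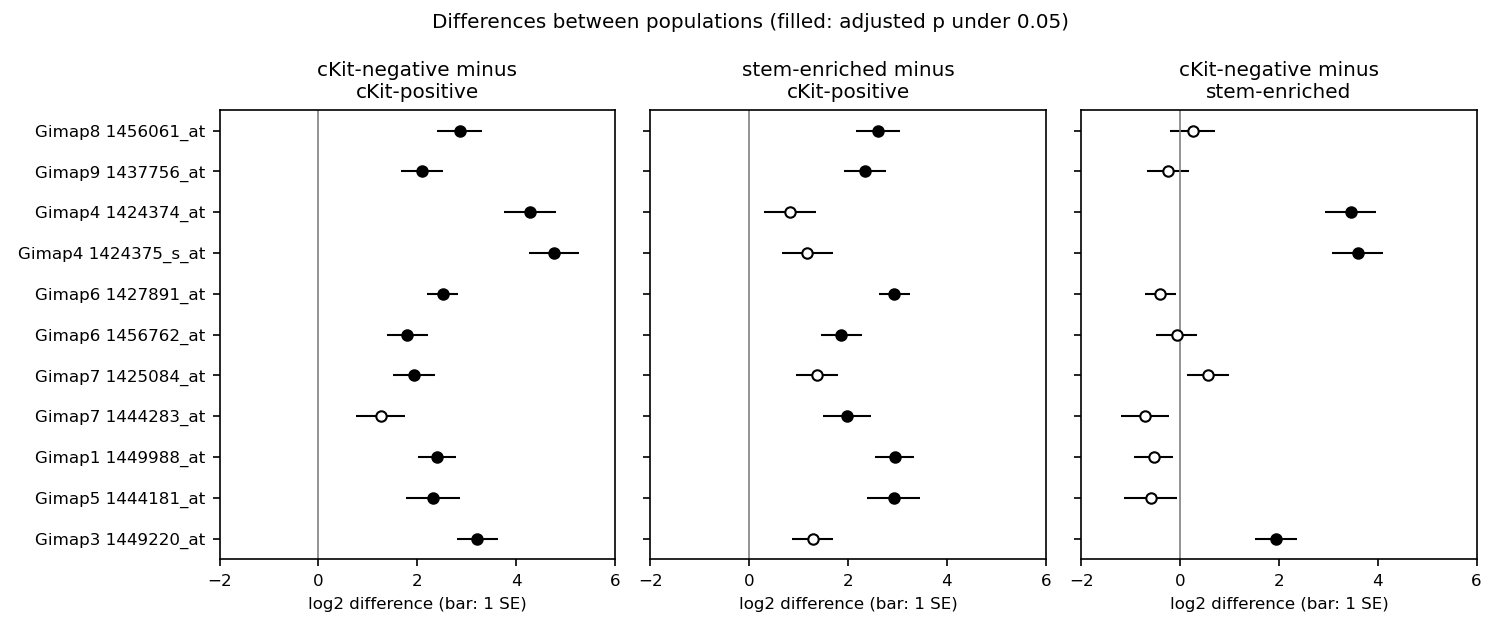
Log2 differences with 1 SE (horizontal axis) of the 11 probe sets in chromosomal order, for cKit-negative minus cKit-positive, stem-enriched minus cKit-positive and cKit-negative minus stem-enriched cells. Filled circles have an adjusted p under 0.05: 10, 7 and 3 of the 11.

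Against the unsorted samples, cKit-positive cells stood lower. In 7 of 11 probe sets they were below lineage-depleted marrow, against 1.18% of tested probe sets lower there: Gimap4 (both), Gimap3, Gimap9, Gimap8, Gimap1 and Gimap6 1427891_at. The log2 differences called ran from -3.46 ± 0.51 (Gimap4 1424375_s_at, limma adjusted p = 0.00113) to -1.32 ± 0.31 (Gimap6, adjusted p = 0.0488). For Gimap6 2 cKit-positive values had been raised to the floor, so its gap may be larger. The Gimap6 call was retained in 1 of 15 fits with a sample left out, the one without stem-enriched 1, and reached 0.185 without lineage-depleted sample 1. The Gimap1 call (-1.78 ± 0.39, adjusted p = 0.0311) was lost without cKit-positive sample 2 (0.0855) or 3 (0.111), total marrow sample 2 (0.051) or 3 (0.0504), or lineage-depleted sample 1 (0.105), 2 (0.0788) or 3 (0.127). That of Gimap8 (-2.27 ± 0.45, adjusted p = 0.00991) was lost without lineage-depleted sample 3 (0.0875). The other 4 were kept in each of the 15 fits. Gimap4 stood at -4.31 and -3.65 without cKit-positive sample 2, with 1424374_at at -2.38 without sample 3. Gimap9 went from -2.29 to -1.85 without sample 2 and -2.99 without sample 1, and Gimap3 from -2.54 to -3.01 and -1.84. Gimap8 was at -2.52 without sample 2. Without cKit-positive sample 2, Gimap6 1456762_at (-1.44, 0.0369) and Gimap7 1425084_at (-1.86, 0.00273) were called too.

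Against total marrow, cKit-positive cells were lower in 6 probe sets, where 8.55% of tested probe sets were lower: Gimap4 (both), Gimap3, Gimap1, Gimap8 and Gimap6 1427891_at. Gimap1 differed by -2.17 ± 0.39 (limma adjusted p = 0.00112) and Gimap4 1424375_s_at by -2.39 ± 0.51 (0.00409). These were -1.89 and -3.24 without cKit-positive sample 2, with Gimap8 at -2.07 (-1.82 with it), Gimap6 at -1.48 (-1.52) and Gimap3 at -2.31 (-1.84). Gimap3 was at -1.14 without sample 1, still called. The other Gimap4 call (-1.73 ± 0.52, adjusted p = 0.0312; -2.41 without cKit-positive 2 and -1.14 without 3) was lost without cKit-positive 1 (0.0607) or 3 (0.131) or total marrow 1 (0.0629), 2 (0.103) or 3 (0.0763). Gimap7 1425084_at was gained without cKit-positive sample 2 (0.0216) and Gimap9 without cKit-positive sample 1 (0.000427). With only cKit-positive and total marrow samples in the fit, 2 of 11 were called and 2124 of all 28599. Stem-enriched cells were higher than total marrow in 4 probe sets, where 7.21% of tested probe sets were higher, namely both of Gimap6, Gimap5 and Gimap7 1444283_at. The Gimap7 call (1.73 ± 0.49, adjusted p = 0.0221) was lost without stem-enriched 2 (0.0651) or 3 (0.0806) or total marrow 1 (0.077) or 3 (0.105). Without cKit-positive sample 2, which belongs to neither population, Gimap4 1424375_s_at (lower, 0.00733), Gimap7 1425084_at (0.0231) and Gimap9 (0.031) were called as well. Gimap9 was also called without cKit-positive sample 1 (0.0101).

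The cKit-negative cells exceeded total marrow in 3 probe sets, where 0.462% of tested probe sets were higher. They were Gimap4 1424374_at (log2 2.55 ± 0.52 SE, limma adjusted p = 0.0328), Gimap4 1424375_s_at (2.37 ± 0.51, 0.0449) and Gimap6 1456762_at (1.95 ± 0.42, 0.0375). These calls held in 8, 3 and 7 of the 15 fits with 1 sample left out, with adjusted p up to 0.155, 0.183 and 0.2, each the value without total marrow sample 3. The first was lost without stem-enriched 2 or any cKit-negative or total marrow sample. The second was lost without any sample other than the cKit-positive ones. The last was lost without stem-enriched 2, total marrow 2 or 3, lineage-depleted 2 or 3 or any cKit-negative sample. Gimap3 was gained without cKit-positive sample 1 (0.0101) or 2 (0.038), and Gimap7 1425084_at without sample 2 (0.0092). With chip lot as a block, however, the Gimap3 difference was 0.0317 (limma adjusted p = 0.993), against 1.38 without the block.

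Between stem-enriched cells and lineage-depleted marrow 3 probe sets were called, against 2.35% of all tested. Gimap4 was lower in stem-enriched cells (-2.14 ± 0.52, adjusted p = 0.0399, and -2.29 ± 0.51, 0.0256), and Gimap6 1427891_at was higher, as given above. The Gimap4 calls held in 6 and 11 of the 15 fits, with adjusted p up to 0.21 without stem-enriched sample 3 and up to 0.143 without stem-enriched sample 2. The first was lost without stem-enriched 2 or 3, cKit-negative 2 or 3, lineage-depleted 1 or 3 or any total marrow sample, and the second without stem-enriched 2 or any lineage-depleted sample. Gimap3 (lower) was gained without cKit-positive sample 1 (0.00713) or 2 (0.0388), and Gimap1 (higher) without sample 1 (0.0392). No member was called between cKit-negative cells and lineage-depleted marrow (1.54% of all tested; 4 members at an unadjusted p under 0.05) or between lineage-depleted and total marrow (4.23%; 3 members). The lowest adjusted p was 0.0631 in the former and 0.179 in the latter. Without cKit-positive sample 2, Gimap4 1424375_s_at was called in both (0.0179 and 0.032), Gimap6 1427891_at in the former (0.0206) and Gimap6 1456762_at in the latter (0.0427). Without cKit-positive sample 1, Gimap9 was called in the latter (0.0314).

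Chip lot could be examined on chip type A. With lot as a block, cKit-negative minus cKit-positive differences of the 6 probe sets there were 1.81 to 4.56 log2 units, all called by limma (highest adjusted p 0.0259, Gimap7). Within lot 2, which held 2 samples of each of these populations, they were 1.63 to 4.13, and all but Gimap7 (adjusted p = 0.195) were called. In the same lot stem-enriched minus cKit-positive cells gave 3.49 for Gimap1 (adjusted p = 0.0079) and 2.88 for Gimap6 (0.0185). Gimap4 differed between cKit-negative and stem-enriched cells within lot 2 by 3.39 (0.0334) and 3.29 (0.0232), and Gimap3 by 1.82 (0.0151). Within lot 2 these differences kept their direction, and each but that of Gimap7 kept its call. Against the unsorted samples several calls were lost with lot as a block, although most of the differences behind the lost calls stayed close in size. Those of Gimap4 for cKit-negative minus total marrow were 2.73 (adjusted p = 0.272; 2.55 without the block) and 1.76 (0.538; 2.37), and for stem-enriched minus lineage-depleted marrow -2.24 (0.293; -2.14) and -2.48 (0.208; -2.29). Gimap6 1427891_at was at 1.23 (0.177; 1.41) for stem-enriched minus total, 1.65 (0.167; 1.61) minus lineage-depleted marrow and -1.22 (0.32; -1.32) for cKit-positive minus lineage-depleted marrow. Gimap4 1424374_at was at -3.11 (0.0642; -2.97) and -1.66 (0.166; -1.73) for cKit-positive minus lineage-depleted and minus total marrow. Gimap1 moved more, to -1.24 (0.238; -1.78) and -1.25 (0.0504; -2.17) in these 2 comparisons. Gimap3, not called for cKit-negative minus total marrow, went from 1.38 to 0.0317. No lot held total marrow with cKit-negative or stem-enriched cells, or lineage-depleted marrow with stem-enriched cells. Sizes with the block in those comparisons rest on indirect links between lots. Within lot 3, which held 1 cKit-positive, 1 lineage-depleted and 3 total marrow samples, cKit-positive minus total marrow was -1.92 and -3.38 for Gimap4. It was -3.23 for Gimap3, -1.61 for Gimap6 and -1.07 for Gimap1. For Gimap3 and Gimap6 the lone cKit-positive sample lay below the floor, so the gap may be larger. The spread of cKit-positive cells could not be seen with 1 sample.

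Gimap1 and Gimap3 were newly called in stem-enriched minus total marrow with lot as a block (2.15, limma adjusted p = 0.0116, and -2.01, 0.0182), and Gimap1 in stem-enriched minus lineage-depleted marrow (2.16, 0.0318), although no lot held both populations of either comparison. On chip type A, cKit-negative samples and cKit-positive samples 2 and 3 were scanned on the same day. With scan day as a block, all 6 probe sets there remained called between these populations. The block set cKit-positive sample 1 alone apart from the rest, so on chip type A it amounts to leaving that sample out. The other populations shared no scan day with a second population of the 5. The cKit-positive samples spanned 2 days, so day entered as a random block in comparisons with them. This was done on chip type A, and chip type B values came from the main fit. On chip type B the cKit-positive arrays shared their day with the cKit-negative arrays alone. Day and population cannot be told apart there in the other comparisons with cKit-positive cells. Over both chip types 5 probe sets were called against total marrow, 5 against lineage-depleted marrow and 6 in stem-enriched minus cKit-positive cells. The calls lost were Gimap4 1424374_at against total marrow (-1.74, adjusted p = 0.082), and Gimap6 1427891_at (-1.33, 0.151) and Gimap1 (-1.72, 0.102) against lineage-depleted marrow. In the last comparison Gimap7 1444283_at of chip type B (0.0637) lost its call through the adjustment alone. Between the remaining populations day and population cannot be told apart. The Gapdh ratio was 3.99 ± 0.17 in stem-enriched, 3.09 ± 0.23 in cKit-negative and 2.08 ± 1.49 in cKit-positive cells (SD, n = 3, chip type A). The stem-enriched ratios, 3.84 to 4.17, lay above all others there, so ratio and population cannot be told apart for stem-enriched cells. The Gapdh ratio then entered as a covariate in the comparisons of cKit-negative with cKit-positive, stem-enriched with cKit-positive and cKit-negative with stem-enriched cells. Of the members 10, 7 and 3 probe sets were called in these comparisons, and of all 28599 probe sets 3293, 319 and 3653. In the second of these Gimap9 (adjusted p = 0.139), Gimap5 (0.078) and Gimap7 1444283_at (0.0548) then lost their calls, while Gimap4 1424375_s_at (log2 difference 2.93, limma adjusted p = 0.00492), Gimap7 1425084_at (2.53, 0.0143) and Gimap3 (2.46, 0.0134) were called. With the covariate Gimap9 (limma adjusted p = 0.0866), Gimap6 1427891_at (0.137) and Gimap1 (0.202) also lost their calls between cKit-positive cells and lineage-depleted marrow, and Gimap7 1425084_at was called there (-1.99, 0.0131).

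The single Sca-1-positive cKit-negative sample had the highest signal of all 16 samples in 8 of the 11 probe sets, against 7.33% of tested probe sets. Gimap9 stood farthest out, with 10186 against at most 4052 in the other 15 samples, 2.51-fold. Gimap8 reached 21176, Gimap3 6276, Gimap4 1424375_s_at 20497 and Gimap7 2865 on 1425084_at, against highest values of 14881, 4676, 18365 and 1650 elsewhere. For Gimap6 (1956 and 14481) and Gimap7 1444283_at (2266) the sample exceeded the highest other sample by 1.03-, 1.26- and 1.06-fold. The 3 exceptions were Gimap5 (3498), below 1 stem-enriched sample, Gimap4 1424374_at (6987), below 2 cKit-negative samples, and Gimap1 (1503), below 3 samples. With 1 sample there is no replicate check. Among the lists described below, the T cell genes summed to 60312 in this sample, against at most 34459 in the other 15. B lineage genes summed to 134690 against at most 115265 and lymphocyte survival genes to 61334 against at most 53739. Such a sum can rest on few genes. The mean log2 signal of the B lineage list was 12.00 in this sample and 11.90 in total marrow sample 1. Natural killer cell genes summed to 53229, within the cKit-negative range, and granulocyte genes to 47811, below all other samples. In the T cell list Cd3d, a subunit of the T cell receptor complex, had a log2 signal of 12.01 there. The part of these cell types in the GIMAP levels was not tested.

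Among themselves the 11 probe sets correlated at r between 0.299 and 0.946 over the 15 samples (55 pairs, median 0.661), as a description of samples that share populations. The Gimap4 probe sets (r = 0.946) and Gimap3 with Gimap4 1424375_s_at (0.935) were most alike. Gimap1 with Gimap6 1427891_at (0.88), Gimap9 with Gimap1 (0.85) and Gimap5 with Gimap6 1427891_at (0.847) followed among pairs of other genes. Gimap4 1424374_at was least like Gimap5 and Gimap7 1444283_at (both 0.299). Gimap3 and Gimap4 lie apart in the cluster, with Gimap6, Gimap7, Gimap1 and Gimap5 between them.

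**Figure D3:**
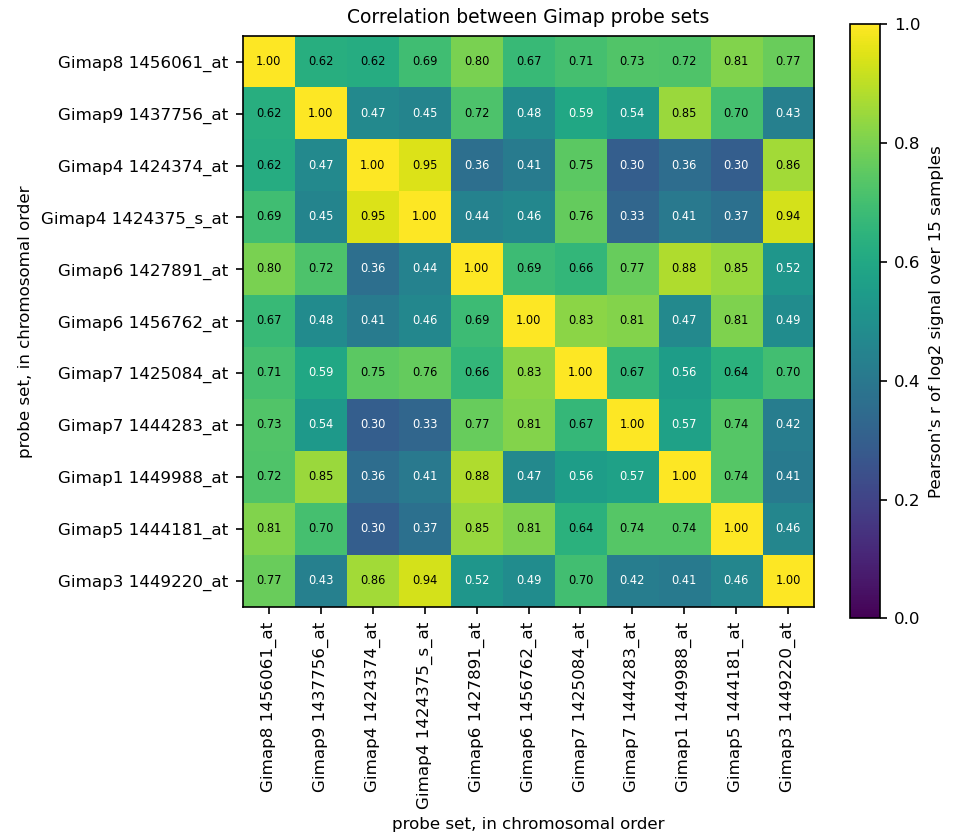
Pearson's r of log2 signal over 15 samples for each pair of the 11 probe sets, in chromosomal order on both axes; the colour scale runs from 0 to 1. The pairs formed by Gimap4 and Gimap3 reach 0.86 to 0.946; Gimap4 1424374_at with Gimap5 or Gimap7 1444283_at is lowest at 0.299.

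The family profile, the mean of the 8 genes' centred log2 signals, was used to rank 13494 other genes by Pearson's r over the 15 samples. The 10 most alike were Kbtbd11 (r = 0.931), Fgf13 (0.922), Ltb (0.912), Cd244a (0.906), Gltp (0.906), Ppp1r16b (0.890), Icos (0.876), Tnfrsf18 (0.872), Fam102a (0.872) and Ccl3 (0.867). Ltb encodes lymphotoxin beta, Cd244a a receptor of natural killer cells, Icos a costimulator of T cells, Tnfrsf18 the receptor GITR and Ccl3 a chemokine. Kbtbd11 had mean log2 signals of 14.63 in cKit-negative, 13.82 in stem-enriched and 11.88 in cKit-positive cells. The r of these 10 lay between 0.851 and 0.958 without cKit-positive sample 2. The ranking is a description of the same 15 samples and carries no test.

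Genes within 300 kb on either side of the cluster numbered 44 in the RefSeq table, of which 11 were tested. Between cKit-negative and cKit-positive cells 1 of these was higher (Zfp467, a zinc finger gene) and 2 were lower (Repin1 and Tmem176b), against 6.47% of tested probe sets higher and 11.5% called in either direction. Tmem176a was lower as well without cKit-positive sample 2 (limma adjusted p = 0.0313). Stem-enriched cells exceeded cKit-positive cells in 3 of 11, against 1.49% of tested probe sets: Zfp467 by 2.65 log2 units (limma adjusted p = 0.00288), Tmem176a by 1.75 (0.00549) and Tmem176b by 1.17 (0.00914). Tmem176a and Tmem176b, which encode membrane proteins and lie next to each other beyond Gimap3, were lower in cKit-negative than in stem-enriched cells by -2.22 (0.000139) and -2.34 (4e-06), as was Repin1 (-1.69, 0.00522). Neither Gimap3 nor Gimap4 shared that direction. Of all tested probe sets 8.48% were called between cKit-negative and stem-enriched cells in either direction.

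Genes whose products are reported to bind or act with GIMAP proteins were followed in a list of 12, of which 10 were tested. Between cKit-negative and cKit-positive cells 3 were higher (6.47% of tested probe sets) and none lower: Bcl2l11, which encodes the death-promoting protein Bim (1.47, limma adjusted p = 0.00293), and the autophagy genes Map1lc3a (1.83, 0.00218) and Map1lc3b (1.46, 0.0326). Bcl2l11 (1.56, limma adjusted p = 0.00813) and Map1lc3a (1.51, 0.0309) also exceeded the cKit-positive level in stem-enriched cells, against 1.49% of tested probe sets higher there. Bcl2, which encodes a survival protein, differed by 0.32 (adjusted p = 0.48) between cKit-negative and cKit-positive cells. Between cKit-negative and stem-enriched cells Gabarap and Bid were higher (1.05, limma adjusted p = 0.0169, and 0.84, 0.0478) and Gabarapl1 lower (-1.28, 0.0284). Of all tested probe sets 8.48% were called there in either direction. The first comparison had 5 higher (6.93% of probe sets in that fit) and 1 lower without cKit-positive sample 2, with Gabarap and Gabarapl2 added above and Gabarapl1 below. The medians of the list were 0.63, 0.28 and 0.41 in the 3 comparisons, against -0.10, 0.00 and -0.11 over 13502 genes.

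A list of 12 lymphocyte survival and trafficking genes had 9 tested members, of which 4 were higher in cKit-negative than in cKit-positive cells and none lower, against 6.47% of tested probe sets higher. The median difference of the list was 0.85, against -0.10 over 13502 genes. They were Foxo1 (2.24, limma adjusted p = 0.00114), a transcription factor of resting lymphocytes, Il7r (1.92, 0.00324), the interleukin 7 receptor, Klf2 (1.56, 0.0116), a factor of lymphocyte trafficking, and Mcl1 (0.87, 0.0349), a survival protein. Without cKit-positive sample 2, 5 were higher and 1 lower (6.93% of probe sets higher in that fit), with Mcl1 no longer called (0.059). None of the 9 was called between stem-enriched and cKit-positive cells (2.23% of tested probe sets in either direction). Without that sample 4 were higher there (Il7r, 0.00237, Klf2, 0.0203, S1pr1, 0.0279, and Foxo1, 0.0366), against 1.78% of probe sets. Jak1 alone was higher in cKit-negative than in stem-enriched cells (1.30, limma adjusted p = 0.0132), against 4.78% of tested probe sets higher there. Of 18 other GTPase genes of immune cells and their regulators 12 were tested. Between cKit-negative and cKit-positive cells Rasgrp1 (2.81, limma adjusted p = 0.00282) and Rac2 (1.09, 0.0065) were higher and Gbp3 (-1.11, 0.0225) was lower. Of all tested probe sets 11.5% were called there in either direction. Between stem-enriched and cKit-positive cells Gbp7 (1.05, limma adjusted p = 0.0126) alone was called, against 2.23% of tested probe sets in either direction. Between cKit-negative and stem-enriched cells Rasgrp1 (2.72, limma adjusted p = 0.00426) and Rac2 (1.25, 0.00275) were higher, and Iigp1 (-1.84, 0.00381) and Gbp3 (-1.55, 0.00303) were lower. Of all tested probe sets 8.48% were called there in either direction.

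Marker lists of cell types were followed in the same samples, and none of the lists was tested against the GIMAP levels. Of 18 T cell genes 13 were tested, and 5 (Cd3d, Cd3e, Cd3g, Cd2 and Lef1) were higher in cKit-negative cells than in both stem-enriched and cKit-positive cells, with none lower, against 4.78% and 6.47% of tested probe sets higher. There were 6 in each comparison without cKit-positive sample 2. None of the 13 was called between stem-enriched and cKit-positive cells, against 2.23% of tested probe sets in either direction. The summed signal of the list was 26253 to 34459 in cKit-negative cells, 19466 to 27705 in lineage-depleted marrow and 19111 to 21599 in total marrow. It was 15582 to 19163 in stem-enriched and 17672 to 22028 in cKit-positive cells, ranges that overlap. Cd8a and Zap70 added much to these sums, with mean log2 signals of 12.1 and 11.67 in stem-enriched and 12.41 and 11.98 in cKit-positive cells. Neither was called in the F test (limma adjusted p = 0.482 and 0.812). Cd3d was at the floor in all 3 stem-enriched and all 3 cKit-positive samples, and Cd3g in all 3 stem-enriched samples. A gene at the floor in both populations could show no difference between them.

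Of 12 natural killer cell genes 10 were tested, of which 8 were higher in cKit-negative than in stem-enriched cells and 6 higher than in cKit-positive cells, 7 without cKit-positive sample 2 (4.78% and 6.47% of all tested probe sets). Their summed signal was 37286 to 67311 in cKit-negative cells, 8819 to 13967 in stem-enriched cells and 13151 to 21682 in cKit-positive cells. Of the 10, Gzmb was lower in stem-enriched than in cKit-positive cells (-2.14, limma adjusted p = 0.0111), against 2.23% of tested probe sets called in either direction. Ccl5, a chemokine of T and natural killer cells, had the largest difference of the list between cKit-negative and stem-enriched cells (4.89, adjusted p = 1.64e-05). B lineage genes (11 tested of 12) summed to 77619 to 115265 in stem-enriched, 7460 to 13726 in cKit-positive and 11434 to 29258 in cKit-negative cells. Of the 11, 2 were higher in stem-enriched than in cKit-positive cells (1.49% of tested probe sets). Most of the stem-enriched sum was Dntt, an enzyme of early lymphoid cells, with a mean log2 signal of 16.27. The mean log2 signal of the list was 10.58 in stem-enriched and 10.49 in cKit-negative cells, and the median difference of the latter from the former was 0.29. Against cKit-positive cells 2 of the 11 were higher in cKit-negative cells (6.47% of tested probe sets), and 8 without cKit-positive sample 2 (6.93%). Stem cell associated genes (8 tested of 9) all exceeded the cKit-negative level in stem-enriched cells (8.48% of tested probe sets called in either direction), where they summed to 48649 to 65541.

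Granulocyte genes had larger median differences than the lymphoid lists. Of 11 tested, 8 were higher in cKit-negative than in stem-enriched cells (median 3.82, against 0.93 for the T cell and 2.47 for the natural killer cell list). The same number were higher than in cKit-positive cells (4.05, against 1.03 and 1.82). Of all tested probe sets 4.78% and 6.47% were higher in these comparisons. Among the 8 granulocyte genes were Ltf, Lcn2 and S100a9, which encode proteins of neutrophils. The other 3, Elane, Mpo and Prtn3, which encode enzymes of early granules, were lower in cKit-negative than in cKit-positive cells (11.5% of tested probe sets called in either direction). The summed granulocyte signal was 487533 to 706249 in cKit-negative, 132446 to 313904 in stem-enriched and 256633 to 432042 in cKit-positive cells, and highest in total marrow (719835 to 886641). Of 6 erythroid genes Alas2 and Slc4a1 were higher in cKit-negative cells than in both stem-enriched and cKit-positive cells (4.78% and 6.47% of tested probe sets). Car1 was lower than in cKit-positive cells (11.5% of tested probe sets called in either direction). The part of these cell types in the GIMAP differences was not tested.

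**Figure D4:**
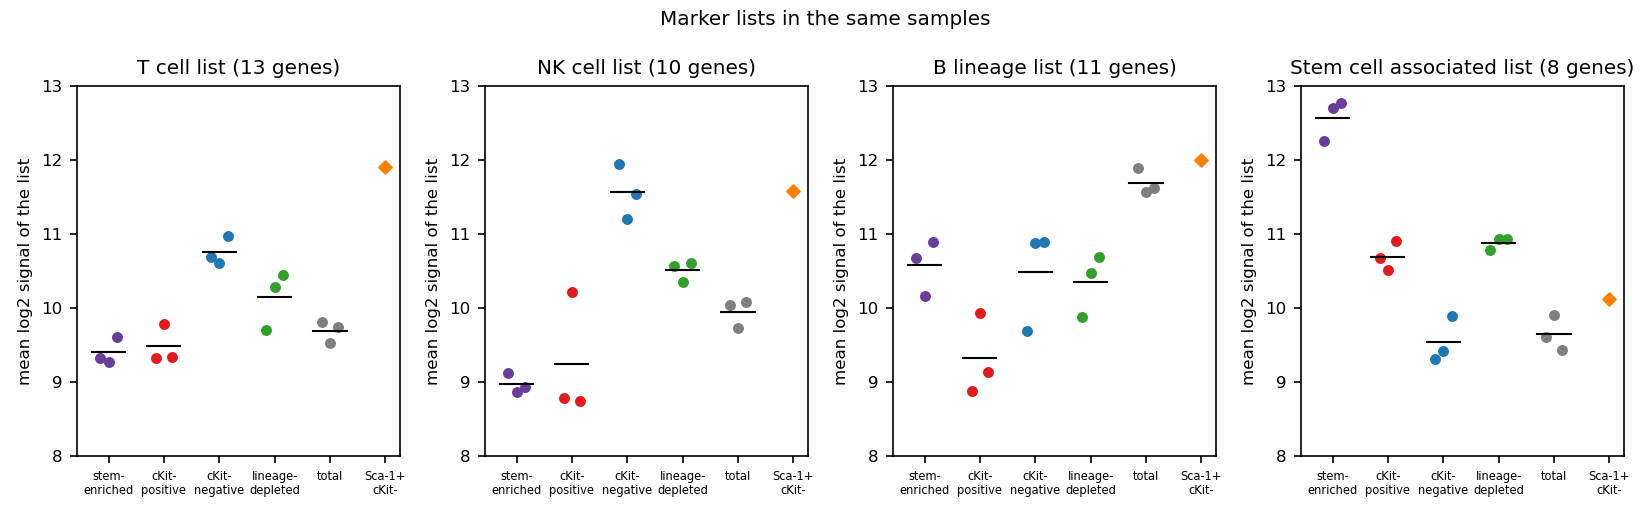
Mean log2 signal (vertical axis) of the tested genes of 4 marker lists in the 6 populations; circles are samples, lines are means of 3 samples and the diamond is the single sample. T and natural killer cell lists are highest in cKit-negative cells among the 5 populations with 3 samples, while the T cell means of stem-enriched and cKit-positive cells are 9.41 and 9.49.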

How the data were processed

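Expression was measured in 16 RNA samples on 32 arrays. The deposited values are an intensity per probe set, the MAS5 signal on a linear scale (the tool's name is per the submitters' processing notes, without a version). The deposited arrays had been scaled to 2% trimmed means of about 1500 and were not rescaled. The instrument records, text fields of unit other as deposited by the authors, gave chip lot and scan day.

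From the signals onward the work was done with limma 3.58.1 in R 4.3.3, with pandas 2.3.3, NumPy 2.4.6 and matplotlib 3.10.9 under Python 3.11.15. Control rows (64 per chip type) and 100 probe sets of chip type B repeated from A were left out. The floor was the 25th percentile per chip type, 162.2 for A and 267.3 for B; lower signals were set to it before taking log2. Of 45037 probe sets, 20380 on A and 14565 on B had 1 gene symbol, 691 and 241 had several, and 1555 and 7605 were unnamed. The 15 samples of 5 populations entered limma with population as the factor and a trend in the variance prior, each chip type by itself. The F test and 10 two-sided comparisons were adjusted by Benjamini-Hochberg over both chip types (threshold 0.05). In simulated data with spreads taken from these arrays, the fit called 13% of 2-fold and 60% of 4-fold changes, with 1 false call. That was for cKit-negative minus total marrow. A difference that was not called may therefore still be present. The precision is limited by 3 samples per population.

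All probe sets of the 8 genes were described. Lists and likeness used 1 probe set per gene, the tested one with the highest mean, and the 10 genes most like the family profile were named. The shares printed beside list counts are over all tested probe sets, not over 1 probe set per gene. The members, lists and rules were chosen with earlier results of these data known. Start regions came from RefSeq (GRCm38.p6), in which all 8 genes matched. Probe-level data and detection calls were not analysed here. Alternatives changed the floor, filter, normalization, variance trend, blocks, covariate and samples; fits within 1 chip lot were chosen after seeing the data.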

Additional observations from a re-analysis of the deposited data

How the results depend on the processing

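No result among the 54 called differences and F tests of the members changed direction in any alternative run. Quantile normalization and the replicate block each left 52 of 54 on the same side of the threshold. Chip lot as a block on chip type A left 41 of 54 there, and no filter left 43 of 54. With only the compared populations in the fit, 21 of 43 kept their call. Over the fits with 1 sample left out, 706 of 810 were kept. The replicate block gave 11 called probe sets in the F test and 10, 3 and 7 for cKit-negative minus cKit-positive, cKit-negative minus stem-enriched and stem-enriched minus cKit-positive cells. Over all 28599 probe sets these counts were 4719, 3170, 2367 and 593. The numbers gave no sign of pairing, since over 60 pairs of same-numbered samples the deviations correlated at -0.145 to 0.277 (median 0.00538). Leaving out 1 sample gave 10 to 11 calls in the F test, 10 to 10 for cKit-negative minus cKit-positive, 3 to 3 for cKit-negative minus stem-enriched, 4 to 10 for stem-enriched minus cKit-positive, 4 to 7 for cKit-positive minus lineage-depleted, 5 to 7 for cKit-positive minus total, 2 to 7 for stem-enriched minus total, 0 to 5 for stem-enriched minus lineage-depleted and for cKit-negative minus total, and 0 to 2 for cKit-negative minus lineage-depleted and for lineage-depleted minus total. With only the compared populations in the fit, 6 samples were left to estimate the spread. The counts follow, with those over all 28599 probe sets in brackets. They were 5 (416) for cKit-negative minus total, 2 (1214) for cKit-negative minus lineage-depleted and 6 (954) for cKit-negative minus cKit-positive. Lineage-depleted minus total had 3 (2875) and stem-enriched minus total 8 (5840). There were 2 (2124) for cKit-positive minus total, 0 (100) for cKit-positive minus lineage-depleted and 0 (3) for stem-enriched minus cKit-positive. The 3 calls (193 over all) for cKit-negative minus total became 0 with no floor (117) and with no filter (168 of 45037). They were also 0 with chip lot as a block (19) and with no variance trend (138). They became 5 with a floor at the 50th percentile (376) or the Gapdh ratio as a covariate (610). For cKit-negative minus lineage-depleted there was 1 call with the higher floor (648 over all), no trend (315) or the covariate (1344). With the covariate, lineage-depleted minus total had 2 (2357 over all). Stem-enriched minus lineage-depleted had 6 with the higher floor (699 over all) and 1 with no filter (532 of 45037) or with chip lot as a block (191). Those last 2 settings gave 4 for cKit-positive minus lineage-depleted (271 and 223 over all). The filter at the 75th percentile tested 8 of the 11 members and gave 2 for stem-enriched minus total (3450 of all 14847 then tested). The cause of these shifts was not tested. Scan day as a fixed block on chip type A could be fitted for cKit-negative minus cKit-positive cells and kept 10 calls (3429 over all 28599 probe sets). It set apart only cKit-positive sample 1, and is no check beyond leaving that sample out. The 10 calls include chip type B probe sets, which had no block. As a random block on chip type A, scan day gave 5 (3244 over all) for cKit-positive minus total and 5 (251) for cKit-positive minus lineage-depleted. It gave 6 (259) for stem-enriched minus cKit-positive, and 4 of 20 calls were lost. These counts too include chip type B probe sets without a block. Within chip lot 2 of chip type A 10 of 11 calls were kept.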
